A study of Mus musculus with 14 samples.

Results

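Transcripts of 8 genes for neurotrophin and GDNF family ligands and receptors were followed in mouse plexiform neurofibromas (PNs): the ligands *Bdnf* and *Gdnf*, the receptor tyrosine kinases *Ntrk2*, *Ntrk3*, and *Ret*, and the co-receptors *Gfra1*, *Gfra2*, and *Gfra3*. They were chosen by symbol, with earlier results of these data known. All 8 have a row among the 24062 genes of the deposited count table. Bulk RNA-seq had been run on whole, undissociated tissue: dorsal root ganglia (DRGs) with their nerves from Nf1fl/fl mice (n = 3 controls), and PNs from DhhCre;Nf1fl/fl mice (n = 11). All mice were of a mixed C57BL/6, I-129, and FVBN background and had received no drug. *Dhh-Cre* deletes *Nf1*, a brake on RAS, in the Schwann cell (SC) lineage, and by the study's account no other cell type of a PN loses it. The controls carry the floxed alleles without Cre. MRI at 7 and 9 months separated slow-growing PNs (n = 5), which had changed by less than 5 mm3, from fast-growing PNs (n = 6), which had grown by more than 35 mm3. The study's methods give the age of the mice as 9 months, while a figure legend gives 7 months. Libraries are named by group and mouse number.

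Neurotrophins are secreted by target tissues, glia, and neurons and bind TRK receptor kinases: BDNF binds TrkB (*Ntrk2*), and neurotrophin-3, encoded by *Ntf3*, binds mainly TrkC (*Ntrk3*). GDNF family ligands bind a GPI-anchored co-receptor, which then recruits the kinase RET; GDNF prefers the co-receptor encoded by *Gfra1*, neurturin that of *Gfra2*, and artemin that of *Gfra3*. In the DRG these receptors mark classes of sensory neurons, while SCs make GDNF after nerve injury and carry mainly a truncated TrkB without a kinase domain. Counts per gene do not separate full-length from truncated receptors.

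In brief, *Ntrk2*, *Gfra1*, and *Gfra2* rose in PNs as a group, and *Ntrk2*, *Gfra2*, and *Gdnf* rose in fast-growing PNs versus controls. Over all PNs the call of *Gfra1* was lost in 10 of 14 fits that left out 1 library. Those of *Ntrk2* and *Gfra2* were lost without either of 2 controls. With scores of skeletal muscle and fat markers as covariates, edgeR called no member in any comparison. These scores did not overlap between controls and PNs, and the share of all genes called in those fits is not given. By the edgeR test, *Gdnf* was the 1 member called between fast- and slow-growing PNs, 7.13-fold higher in the fast-growing ones, a call that was lost without any one of 7 of the 11 PNs; DESeq2 also called *Ntrk3* and *Gfra1* lower. *Ret* and *Bdnf* varied with the neuronal transcripts of a library, and *Ntrk3*, *Gfra3*, *Ret*, and *Bdnf* passed the test in no comparison.

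A region upstream of *Gdnf* is shown because *Gdnf* is the member that differed between the growth groups, and that of *Ntrk2* because *Ntrk2* separated fast-growing PNs from controls most clearly. Each sequence holds the 250 bases before a RefSeq start (GRCm38.p6, plus strand), at chr15:7809798-7810047 for *Gdnf* and chr13:58806319-58806568 for *Ntrk2*; capitals mark the TATA motif, TATAAA, searched on both strands.
Gdnf: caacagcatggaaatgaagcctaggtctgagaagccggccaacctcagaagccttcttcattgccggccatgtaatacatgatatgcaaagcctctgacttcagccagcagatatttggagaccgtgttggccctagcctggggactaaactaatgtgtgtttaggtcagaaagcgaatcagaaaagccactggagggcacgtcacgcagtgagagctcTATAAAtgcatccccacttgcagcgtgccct
Ntrk2: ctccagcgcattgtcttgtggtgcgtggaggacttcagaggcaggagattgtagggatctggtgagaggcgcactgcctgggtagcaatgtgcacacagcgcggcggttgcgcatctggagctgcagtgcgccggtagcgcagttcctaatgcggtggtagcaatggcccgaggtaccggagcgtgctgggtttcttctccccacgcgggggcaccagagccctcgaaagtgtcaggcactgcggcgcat
In this *Gdnf* window the motif begins 31 bases before the start. Of 32851 mouse windows of this length, 12.4% hold the motif on either strand, and 1.87% hold it on the gene's strand wholly within 40 to 20 bases before the start. The *Ntrk2* window holds no such letters, but 19 CG dinucleotides against 7 in the *Gdnf* window shown and a median of 6.0 over all windows. A second RefSeq window of *Gdnf*, at chr15:7813477-7813726 and not shown, holds no such motif and 14 CG dinucleotides, and which start was used in these libraries was not measured. RefSeq windows were at hand for 4 of the 8 members, 11 windows in all, and the motif was in 1 of them. These matches describe the letters alone.

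The libraries held 9596773 to 17594164 counts on genes. Levels are given as CPM, read counts divided by the TMM-scaled size of the library, and 3 counts corresponded to 0.167 to 0.313 CPM, a floor that covers counting error only. Pairs of libraries within a group differed well beyond counting noise, so none was counted as a duplicate. *Nf1* itself lay at 129 to 228 CPM in controls, 225 to 294 in slow-growing PNs, and 225 to 276 in fast-growing PNs, so it was not lower in PNs. Whole-gene counts include exons that Cre leaves in place and cells that were never recombined, and do not check the genotype. All 15 pan-neuronal markers were detected in every group, and their score, the mean log2(CPM + 1), was 6.37 to 9.50 in 13 libraries but 1.63 in fast-growing PN 1191, which thus had little neuronal RNA. Controls carried more skeletal muscle transcript (15 markers, score 7.81 to 9.74, against 1.28 to 7.67 in slow- and 2.44 to 7.04 in fast-growing PNs) and more fat transcript (13 markers, 7.04 to 7.20 against 1.03 to 5.68 and 0.731 to 2.92). No marker of these 3 lists was at 0 throughout a group. The part of these tissues in the results was not tested apart from the alternatives given with the processing.

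*Gdnf*, the founding ligand of its family (chr15:7810846-7837575, plus strand, mm10), was scarcely detected in controls. It reached 0.943 CPM in DRG3 (11 counts), 0 in DRG4, where 3 counts would be 0.275 CPM, and 0.313 CPM in DRG5 (3 counts). Slow-growing PNs gave 0.456, 1.13, 0.613, 0.458, and 0.482 CPM in mice 1079, 1198A, 1202, 1203, and 1206, from 5 to 15 counts each. In fast-growing PNs it ran from 1.57 CPM in 1071 (23 counts) over a median of 4.05 to 8.16 CPM in 1191 (108 counts). Every fast-growing PN therefore lay above every slow-growing PN and every control, and the neuron-poor library 1191 was the highest of all. Slow-growing PNs overlapped the controls.

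Between growth groups, *Gdnf* was higher in fast-growing PNs by a log2 fold change of 2.84 ± 0.46 (SE; 95% interval 1.84 to 3.83; edgeR quasi-likelihood test with Benjamini-Hochberg adjustment, adjusted p = 0.0317), the 23rd smallest p of 15465 genes. Against controls the log2 fold change of fast-growing PNs was 3.36 ± 0.87 (SE; edgeR quasi-likelihood adjusted p = 0.0158). *Gdnf* did not pass the count filter in the fit of slow-growing PNs to controls; without that filter its log2 fold change was 0.56 ± 0.91 (SE; edgeR quasi-likelihood adjusted p = 0.695). Over all PNs it was 2.69 ± 1.17 (edgeR quasi-likelihood adjusted p = 0.104). The size of the growth-group difference was stable when single libraries were left out (log2 fold change 2.57 to 3.17), but its adjusted p was above 0.05, at 0.0645 to 0.120, without any one of 7 libraries (1079, 1202, 1206, 1053, 1179, 1191, or 1216). Without DRG5 the difference of fast-growing PNs from controls had an edgeR adjusted p of 0.0649. With scores of skeletal muscle and fat markers as covariates, the log2 fold change of *Gdnf* turned to -1.34 ± 1.59 over all PNs, and that of fast-growing PNs versus controls was 2.09 ± 2.71 and no longer called (edgeR adjusted p = 0.659 and 0.904).

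**Figure D1:**
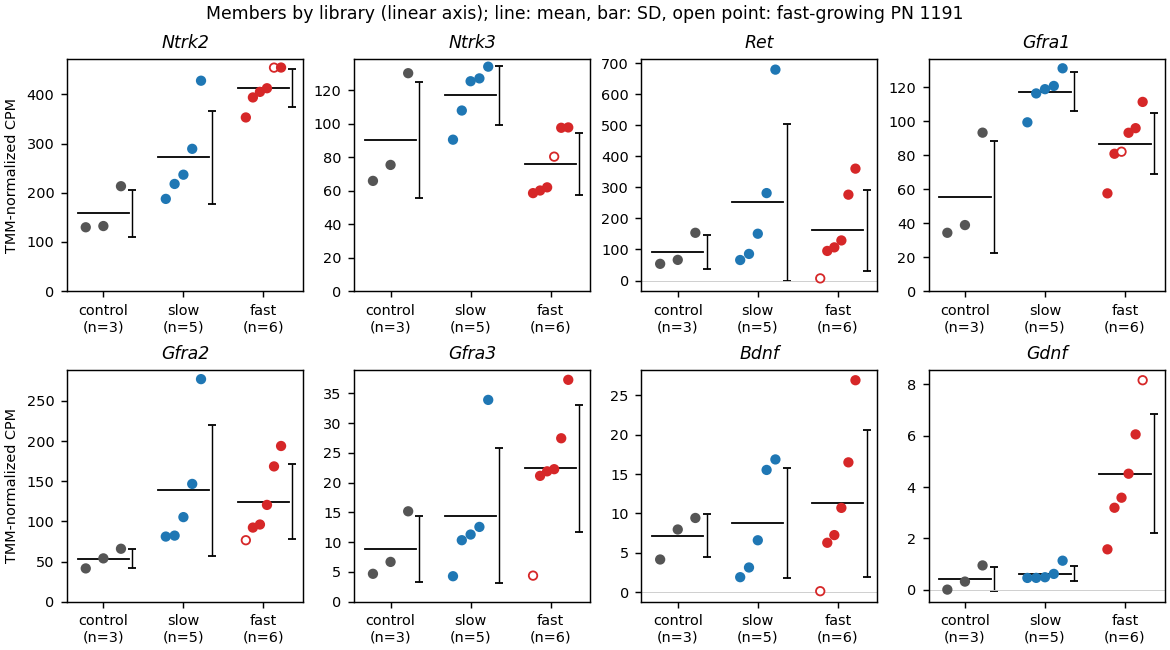
TMM-normalized CPM (y axis, linear, a separate scale for each gene) of the 8 members in each library, by group (control n = 3, slow-growing PN n = 5, fast-growing PN n = 6). Points are libraries, horizontal lines the means, vertical bars 1 SD, and the open point is the neuron-poor fast-growing PN 1191; *Gdnf* lies between 1.57 and 8.16 CPM in fast-growing PNs and at or below 1.13 CPM elsewhere, while *Ret* and *Bdnf* overlap across the groups.

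*Bdnf*, the TrkB ligand made by some sensory neurons (chr2:109674700-109727007, plus strand), showed no group difference. Controls had 9.43, 7.97, and 4.17 CPM, and slow-growing PNs 6.61, 3.16, 15.5, 16.9, and 1.93 CPM in 1079, 1198A, 1202, 1203, and 1206. Fast-growing PNs ranged from 0.151 CPM (2 counts) in 1191 over a median of 8.99 to 26.9 CPM in 1071. The groups overlapped fully, and the lowest level was that of the neuron-poor library. Its log2 fold change was 0.48 ± 0.85 (SE) over all PNs and 0.36 ± 0.83 between fast- and slow-growing PNs (edgeR quasi-likelihood adjusted p = 0.709 and 0.823). The 95% intervals, -1.33 to 2.29 and -1.45 to 2.17, leave room for sizeable changes either way. The opposite strand of a *Bdnf* exon carries the annotated gene *Gm45346*, and the strand setting of the counting is not given in the sources used here.

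*Ntrk2*, the TrkB gene (chr13:58806569-59133970, plus strand), was the most evenly raised member in fast-growing PNs. Controls had 213, 130, and 132 CPM in DRG3, DRG4, and DRG5. Slow-growing PNs had 188, 428, 218, 289, and 237 CPM in 1079, 1198A, 1202, 1203, and 1206, and fast-growing PNs ran from 353 CPM in 1053 over a median of 409 to 455 CPM in 1216. All 6 fast-growing PNs thus exceeded all 3 controls; of the slow-growing PNs, 1198A lay within the fast-growing range and 1079 below the highest control. The neuron-poor library, 1191, was the second highest of the PNs, at 455 CPM.

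The log2 fold change of *Ntrk2* was 1.32 ± 0.19 (SE) in fast-growing PNs versus controls, a 2.49-fold rise (edgeR quasi-likelihood adjusted p = 0.000744), and it remained past the threshold without any one library. In slow-growing PNs it was 0.72 ± 0.31, with an edgeR quasi-likelihood adjusted p of 0.156, and over all PNs 1.12 ± 0.30 with an adjusted p of 0.0131. The direct comparison of fast- with slow-growing PNs gave 0.60 ± 0.20 (edgeR quasi-likelihood adjusted p = 0.121). Without slow-growing PN 1198A that difference of *Ntrk2* was 0.82, with an edgeR adjusted p of 0.0110. Without DRG4 or DRG5 the rise over all PNs was no longer called (edgeR adjusted p = 0.0797 and 0.0851). With the skeletal muscle and fat scores as covariates, the log2 fold change of *Ntrk2* dropped to 0.11 over all PNs (edgeR adjusted p = 0.895) and 0.037 in slow-growing PNs, and was 1.11 in fast-growing PNs (adjusted p = 0.836).

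*Ntrk3*, the TrkC gene (chr7:78175959-78738012, minus strand), had similar levels in PNs and controls. It was measured at 130, 75.4, and 65.9 CPM in controls, at 90.5 to 134 CPM (median 125) in slow-growing PNs, and at 58.6 to 97.8 CPM (median 71.2) in fast-growing PNs. The 2 growth groups overlapped through 1198A, 1071, and 1214, with the other slow-growing PNs above every fast-growing PN. The log2 fold change was 0.05 ± 0.28 (SE) over all PNs, and -0.62 ± 0.18 in fast- versus slow-growing PNs (edgeR quasi-likelihood adjusted p = 0.917 and 0.0810). Without 1198A the latter was -0.70, with an edgeR adjusted p of 0.0404 for *Ntrk3*. Its log2 fold change versus controls was 0.32 in slow- and -0.32 in fast-growing PNs (edgeR quasi-likelihood adjusted p = 0.394 and 0.363).

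*Ret*, the signalling receptor of the GDNF family (chr6:118151745-118197718, minus strand), varied more than any other receptor of the 8. Controls had 154, 66.5, and 53.8 CPM, and slow-growing PNs 151, 66.1, 282, 679, and 85.7 CPM in 1079, 1198A, 1202, 1203, and 1206. Fast-growing PNs ran from 6.95 CPM in 1191 over a median of 118 to 360 CPM in 1071. The lowest and the highest of all 14 libraries were thus both PNs, and they were also the libraries with the lowest and the highest pan-neuronal score. *Ret* had log2 fold changes of 1.14 ± 0.89 (SE) over all PNs, 1.40 ± 0.79 in slow-, and 0.76 ± 0.87 in fast-growing PNs versus controls (edgeR quasi-likelihood adjusted p = 0.366, 0.254, and 0.554). Fast- versus slow-growing PNs gave -0.64 ± 0.80 (95% interval -2.39 to 1.11; edgeR quasi-likelihood adjusted p = 0.667), and 0.15 without slow-growing PN 1203.

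Of the co-receptor genes, *Gfra1* and *Gfra2* rose over all PNs, and *Gfra3* was called in no comparison. *Gfra1*, whose product binds GDNF (chr19:58235604-58455909, minus strand), was at 93.4, 38.9, and 34.4 CPM in controls and at 131, 117, 99.5, 121, and 119 CPM in slow-growing PNs. Fast-growing PNs ran from 57.6 CPM in 1216 over a median of 87.7 to 112 CPM in 1071. Every slow-growing PN lay above every control, whereas fast-growing PNs overlapped DRG3. The log2 fold change was 0.84 ± 0.29 (SE) over all PNs (edgeR quasi-likelihood adjusted p = 0.0470), 1.03 ± 0.32 in slow-, and 0.59 ± 0.31 in fast-growing PNs (adjusted p = 0.0748 and 0.183).

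The call for *Gfra1* over all PNs is close to the threshold. It was lost in 10 of 14 fits that left out 1 library (all but those without DRG3, 1179, 1191, or 1216), with edgeR adjusted p between 0.0546 and 0.248 and a log2 fold change of *Gfra1* no lower than 0.59. Without DRG3 the log2 fold change was 1.61 in slow- and 1.15 in fast-growing PNs, both called (edgeR quasi-likelihood adjusted p = 0.00488 and 0.00523). Between fast- and slow-growing PNs it was -0.44 ± 0.15 (edgeR quasi-likelihood adjusted p = 0.140). The gene *Gm16277* overlaps a *Gfra1* exon on the opposite strand, so its reads may have been counted for *Gfra1*.

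*Gfra2*, whose product binds neurturin (chr14:70890120-70979838, plus strand), was the 1 member that separated all 11 PNs from all controls. It was at 65.9, 54.0, and 41.5 CPM in controls and at 81.1, 82.3, 147, 277, and 105 CPM in slow-growing PNs 1079, 1198A, 1202, 1203, and 1206. Fast-growing PNs ran from 76.6 CPM in 1191 over a median of 108 to 194 CPM in 1071. The neuron-poor library was thus the lowest PN, yet above the highest control. *Gfra2* rose by a log2 fold change of 1.27 ± 0.39 (SE) over all PNs and 1.14 ± 0.30 in fast-growing PNs (edgeR quasi-likelihood adjusted p = 0.0267 and 0.0180). In slow-growing PNs the value was 1.30 ± 0.43 (edgeR quasi-likelihood adjusted p = 0.0877), and 0.92 with an adjusted p of 0.0481 without the highest library, 1203. Both calls of *Gfra2* were lost without DRG4 (edgeR adjusted p = 0.0961 and 0.0624) or DRG5 (0.141 and 0.0879). Between growth groups it was -0.15 ± 0.35 (edgeR quasi-likelihood adjusted p = 0.826), and 0.26 without 1203.

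*Gfra3*, whose product binds artemin (chr18:34689898-34720387, minus strand), was the least abundant of the 3 co-receptor genes among the members. Controls had 15.2, 6.69, and 4.69 CPM, slow-growing PNs 10.3, 4.28, 12.6, 33.9, and 11.3 CPM, and fast-growing PNs 4.38 (in 1191) to 37.3 CPM with a median of 22.1. In 5 of 6 fast-growing PNs *Gfra3* was above every control, and 1191 was the 1 fast-growing PN below every control, as was slow-growing PN 1198A. Its log2 fold change was 1.07 ± 0.63 (SE) over all PNs and 1.28 ± 0.58 in fast-growing PNs (edgeR quasi-likelihood adjusted p = 0.229 and 0.126). Without 1191 the latter was 1.49 with an edgeR adjusted p of 0.0161. With the muscle and fat scores as covariates the direction of *Gfra3* turned, to -0.55 over all PNs and -1.30 in fast-growing PNs (edgeR adjusted p = 0.731 and 0.925). It was 0.64 in slow-growing PNs versus controls and 0.63 in fast- versus slow-growing PNs (edgeR quasi-likelihood adjusted p = 0.503 and 0.531).

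**Figure D2:**
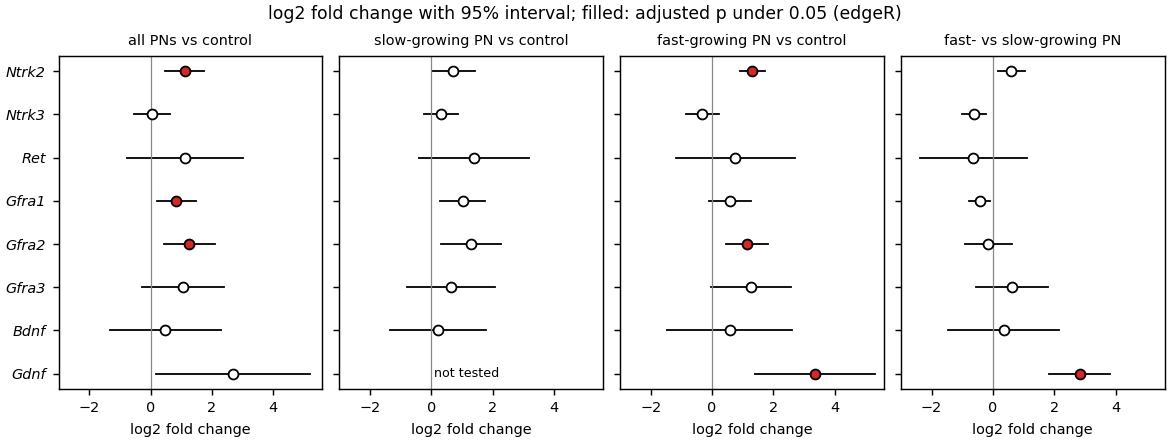
Log2 fold changes of the 8 members (x axis) in 4 comparisons, with their 95% intervals (edgeR quasi-likelihood fit). Filled points had an adjusted p under 0.05 over all genes tested: *Ntrk2*, *Gfra1*, and *Gfra2* over all PNs, *Ntrk2*, *Gfra2*, and *Gdnf* in fast-growing PNs versus controls, and *Gdnf* in fast- versus slow-growing PNs; the intervals of *Ret* and *Bdnf* span 0 in each panel.

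As a group, 3 of 8 members rose and 0 fell in PNs versus controls, where edgeR called 12.9% of 16283 genes higher and 13.4% lower. There 4 of 8 members had an unadjusted p under 0.05, as did 38.9% of all genes tested. DESeq2 called 4 members higher and 0 lower, and limma-voom called 3 higher and 0 lower. For these tools, and for edgeR under the alternatives given with the processing, no share of all genes called is given here or below. Their counts stand without a background. The median log2 fold change of the 8 members was 1.09, against 0.10 over all genes tested. The members were chosen with earlier results of these data known, so these shares and medians are descriptions. Separation of every PN from every control held for 1 of 8 members and for 17.6% of all genes. In slow-growing PNs, edgeR called 0 of the 7 members tested in either direction, DESeq2 called 2 and limma-voom 1 higher, and 3 had an unadjusted p under 0.05, as did 30.3% of all genes; edgeR called 4.12% of 15714 genes higher and 7.13% lower. There *Gfra1* and *Gfra2* did not overlap with controls, as did 23.5% of all genes. In fast-growing PNs 3 of 8 rose and 0 fell, beside 14.8% of 16037 genes higher and 16.7% lower, and 3 of 8 did not overlap with controls, beside 32.7%. An unadjusted p under 0.05 was found in that comparison for 3 of 8, beside 41.8% of all genes. In fast- versus slow-growing PNs 1 of 8 was higher and 0 lower, beside 0.802% and 0.466% of 15465 genes. There 1 of 8 did not overlap, beside 3.04%. An unadjusted p under 0.05 was found between growth groups for 4 of 8 members, in either direction, beside 20.4% of all genes. DESeq2 called 2 of 8 lower there, *Ntrk3* and *Gfra1*, with no share of all genes at hand for that tool. The comparisons of slow- and of fast-growing PNs share the same 3 controls. With the skeletal muscle and fat scores as covariates, edgeR called 0 members in any of the 4 comparisons at larger standard errors. Over all PNs the log2 fold change was then 1.33 ± 0.51 (SE) for *Gfra1* and 1.31 ± 0.61 for *Gfra2* (edgeR adjusted p = 0.207 and 0.283), no smaller than without them, against 0.11 ± 0.41 for *Ntrk2*. For *Gdnf* between growth groups it was 2.79 ± 0.61 (edgeR adjusted p = 0.300). In limma-voom the 2 calls of *Gdnf* had an adjusted p of 0.0557 versus controls and 0.0569 between growth groups. Each library carries a number of its own in the labels, and the p-values measure the spread between these samples.

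Per kilobase of the longest annotated transcript, mean levels in controls ran from *Ntrk2* (18.1 ± 5.4 CPM per kb, SD) over *Ret* (16.7 ± 10.0), *Gfra2* (15.5 ± 3.5), *Gfra1* (12.0 ± 7.1), *Ntrk3* (4.59 ± 1.76), *Gfra3* (4.43 ± 2.79), and *Bdnf* (1.69 ± 0.64) to *Gdnf* (0.114 ± 0.131). Only the last step exceeded the spread of 1 SD on either side. In slow-growing PNs *Ret* was first (46.3 ± 46.3 CPM per kb), and the steps from *Gfra1* (25.3 ± 2.5) to *Gfra3* (7.24 ± 5.66), from *Ntrk3* (5.94 ± 0.90) to *Bdnf* (2.07 ± 1.63), and from *Bdnf* to *Gdnf* (0.171 ± 0.078) exceeded it. In fast-growing PNs *Ntrk2* was first (47.2 ± 4.4 CPM per kb), and the step from *Gfra3* (11.2 ± 5.4) to *Ntrk3* (3.86 ± 0.94) alone exceeded the spread. *Gdnf*, at 1.23 ± 0.63 CPM per kb in fast-growing PNs, no longer stood apart from *Bdnf*, at 2.65 ± 2.19.

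The members parted in how they moved with neuronal RNA. In whole tissue, fewer cells of a type and less RNA per cell cannot be told apart. In library 1191, *Ret*, *Gfra2*, and *Bdnf* were the lowest of the 11 PNs and *Gfra3* the second lowest, whereas *Gdnf* was the highest, *Ntrk2* the second highest, and *Gfra1* and *Ntrk3*, at 82.2 and 80.4 CPM, lay within the range of the other fast-growing PNs. Across the 11 PNs, log2(CPM + 1) of *Ret* had a Pearson r of 0.969 with the pan-neuronal score (0.963 without 1191 and 1203, the libraries farthest from the median score), and *Bdnf* had 0.873 (0.855 without them). *Gfra2* had 0.648 with that score and 0.895 with a score of 8 markers of nonpeptidergic nociceptors and unmyelinated touch neurons (0.713 and 0.924 without the same libraries). The latter score was 3.48 to 4.60 in controls, 3.94 to 7.25 in slow-, and 1.61 to 6.09 in fast-growing PNs; 1 of its 8 markers was called higher over all PNs by edgeR, and their median log2 fold change was 1.44 over all PNs, 1.79 in slow-, and 0.86 in fast-growing PNs versus controls, beside 1.27, 1.30, and 1.14 for *Gfra2*. The part of these neurons in the rise of *Gfra2* was not tested. *Gfra3* had 0.640 with the pan-neuronal score, which fell to 0.265 without them, so that its relation rests on those libraries. For *Ntrk3*, *Gfra1*, and *Ntrk2* the r with the pan-neuronal score was 0.314, 0.385, and -0.405. Points share the library, its depth, and its cell makeup, and these values are descriptions. Of the 15 pan-neuronal markers, 0 were called in any of the 4 comparisons by edgeR, with 2 at an unadjusted p under 0.05 in slow-growing PNs versus controls and 0 in the others.

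Glial, stromal, and vascular markers were scored in the same way. The score of 8 nonmyelinating and immature SC markers was 4.82 to 6.01 in controls, 6.53 to 7.29 in slow-growing PNs, and 7.10 to 7.78 in fast-growing PNs. By edgeR, 7 of the 8 rose over all PNs, and 1 of 8 was called higher in fast- than in slow-growing PNs. The fibroblast score, of 7 markers, was 7.84 to 8.84 in controls, 7.19 to 9.76 in slow-growing PNs, and 9.77 to 10.8 in fast-growing PNs. All 7 rose in fast-growing PNs versus controls by edgeR, while 0 of 7 were called in slow-growing PNs versus controls or between growth groups, where 7 of 7 had an unadjusted p under 0.05. The macrophage score, also of 7 markers, overlapped among all 3 groups, at 3.76 to 5.41, 2.42 to 5.32, and 4.58 to 6.14. Of these markers edgeR called 0 over all PNs, 1 higher in fast-growing PNs versus controls, and 0 between growth groups, where 6 of 7 had an unadjusted p under 0.05. The score of 8 satellite glia markers was 6.14 to 6.74 in controls, 6.37 to 7.29 in slow-growing PNs, and 6.80 to 7.30 in fast-growing PNs, and in fast-growing PNs versus controls edgeR called 3 of the 8 higher and 3 lower. The score of 8 myelinating SC markers was 7.19 to 8.55, 7.44 to 9.26, and 7.07 to 7.99 in the same order. Between growth groups 2 of the 8 were called lower in fast-growing PNs by edgeR and 7 of 8 had an unadjusted p under 0.05, with a median log2 fold change of -0.99. The endothelial score, of 6 markers, was 5.42 to 5.81 in controls, 3.77 to 5.79 in slow-growing PNs, and 4.18 to 5.30 in fast-growing PNs; edgeR called 2 of the 6 lower over all PNs, 3 lower in fast-growing PNs versus controls, and 0 between growth groups. The perineurial score, also of 6 markers, was 4.69 to 6.02, 3.4 to 5.83, and 4.16 to 5.80, with 1 marker lower over all PNs and 1 higher in fast-growing PNs by edgeR. No marker of these 7 lists was at 0 throughout a group.

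Library 1191, with the highest *Gdnf* and the second highest *Ntrk2* of the PNs, had the lowest nonmyelinating SC score of the fast-growing PNs (7.10), below that of slow-growing PN 1198A (7.29), and the highest fibroblast and macrophage scores of all libraries. Over the 11 PNs, *Ntrk2* had an r of 0.812 with the nonmyelinating SC score (0.668 without 1079 and 1202, the libraries farthest from its median) and -0.312 within the 6 fast-growing PNs. Its r was 0.783 with the macrophage, 0.737 with the satellite glia, 0.667 with the fibroblast, and -0.757 with the myelinating SC score, and within the fast-growing PNs 0.290, -0.809, 0.457, and -0.484 in that order. *Gdnf* had an r of 0.838 with the fibroblast score over the 11 PNs (0.955 without 1202 and 1203) and 0.910 within the fast-growing PNs. With the macrophage score its r was 0.865 (0.846 without 1079 and 1203) and 0.745, and with the nonmyelinating SC score 0.630 (0.481 without 1079 and 1202) and -0.756. *Ntrk3* and *Gfra1*, lower in fast-growing PNs by DESeq2, had an r of 0.694 and 0.684 with the myelinating SC score (0.474 and 0.585 without 1079 and 1206), -0.880 and -0.739 with the macrophage score (-0.865 and -0.661 without 1079 and 1203), and -0.778 and -0.674 with the fibroblast score (-0.863 and -0.850 without 1202 and 1203). *Gfra2* had an r of -0.891 with the perineurial score (-0.643 without 1071 and 1203) and -0.677 with the endothelial score (-0.629 without 1203 and 1206). Each r over the 11 PNs spans both growth groups and is a description. The part of these cell types in the group differences of *Gdnf*, *Ntrk2*, *Ntrk3*, *Gfra1*, or *Gfra2* was not tested. By the study's single-cell account, *Gdnf* was among the genes enriched in the nonmyelinating SC cluster of PNs. Which cells gave the *Gdnf* reads of these whole-tissue libraries was not measured.

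**Figure D3:**
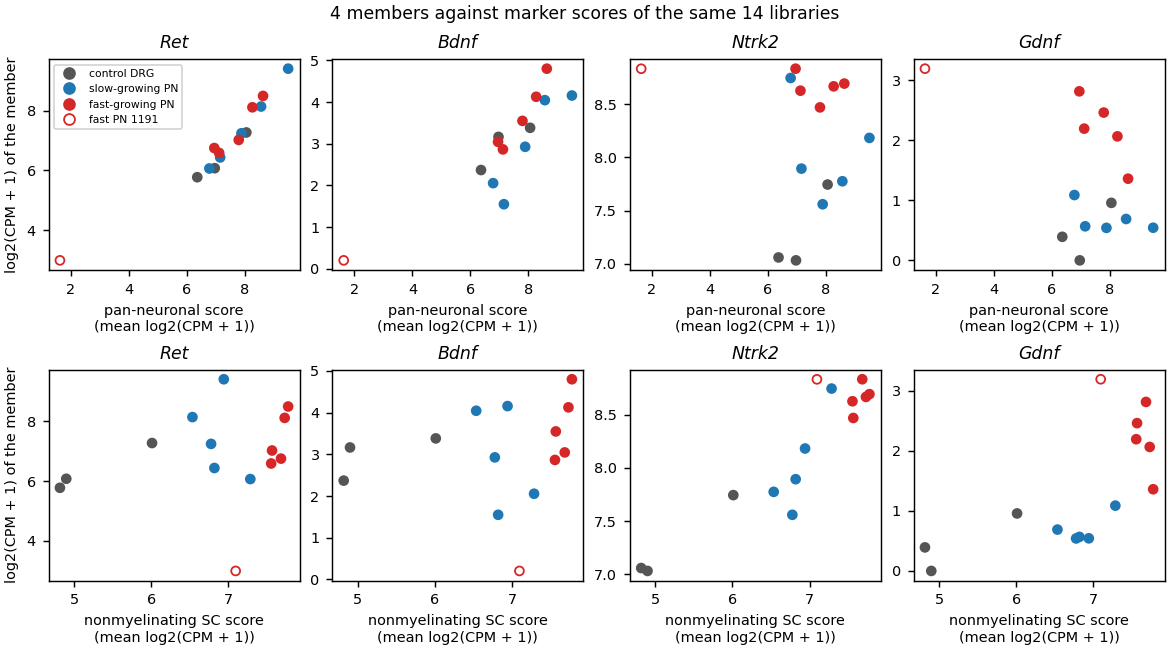
Log2(CPM + 1) of *Ret*, *Bdnf*, *Ntrk2*, and *Gdnf* (y axes) against the pan-neuronal score (upper row) and the nonmyelinating SC score (lower row) of the same libraries, both as mean log2(CPM + 1) over the markers. Grey points are the 3 controls, blue the 5 slow-growing and red the 6 fast-growing PNs, and the open point is 1191, with a pan-neuronal score of 1.63; *Ret* and *Bdnf* climb with the pan-neuronal score and are lowest in 1191, where *Ntrk2* and *Gdnf* stay high.

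Among 11097 expressed genes, those whose log2(CPM + 1) followed each member most closely over the 14 libraries were named by Pearson r as a description. For *Gdnf* they were *Gab2* (0.949), *Ptgfrn* (0.949), and *Cyp4f16* (0.948). For *Ntrk2* they were *Tulp3* (0.979), *Tenm3* (0.972), and *Megf10* (0.968), and for *Ntrk3* *Adcy1* (0.957), *Fryl* (0.943), and *Gnai1* (0.931). The closest to *Ret* were *Reep1* (0.997), *Nipal3* (0.996), and *Syngr3* (0.996), and the closest to *Bdnf* were *Calcb* (0.948), a calcitonin gene-related peptide gene of sensory neurons, *Skp1a* (0.944), and *Golga7b* (0.942). *Gfra1* was followed by *Capn2* (0.951), *Fbxo25* (0.945), and *Pex5l* (0.945), and *Gfra2* by *Shc1* (0.978), *Camk2d* (0.969), and *Gnaq* (0.969). *Gfra3* had the loosest companions, among them *Vps18* (0.884) and *Sgsm3* (0.878). These libraries share their group differences, so genes that differ between groups resemble each other on that account.

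The other genes of the pathways, 42 ligands, receptors, adaptors, and processing enzymes, were counted in the same fits. Over all PNs, 8 of 37 tested rose and 2 fell, beside 12.9% and 13.4% of all genes; the median log2 fold change was 0.58. Versus controls, 3 of 37 rose and 0 fell in slow-growing PNs (4.12% and 7.13% of all genes), and 9 of 36 rose and 3 fell in fast-growing PNs (14.8% and 16.7%). In fast- versus slow-growing PNs 2 of 36 were higher and 0 lower (0.802% and 0.466%). For slow-growing PNs versus controls an unadjusted p under 0.05 was found for 8 of 37 genes, in either direction, beside 30.3% of all genes, and DESeq2 and limma-voom each called 2 lower. Between growth groups it was found for 10 of 36, beside 20.4% of all genes, and neither tool called a gene lower.

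Among the other ligands, *Ntf3*, which encodes the main ligand of TrkC, fell over all PNs and in fast-growing PNs, and was not called with muscle and fat scores as covariates. Controls had 1.46, 1.74, and 1.77 CPM (17 to 19 counts), slow-growing PNs 0 to 0.868 CPM (0 to 9 counts), and fast-growing PNs 0 to 0.151 CPM (0 to 2 counts). In 4 of 6 fast-growing PNs not a single count of *Ntf3* was seen, and no PN reached the lowest control. The log2 fold change was -3.41 (95% interval -5.35 to -1.47) over all PNs and -5.67 (-7.44 to -3.90) in fast-growing PNs (edgeR quasi-likelihood adjusted p = 0.0133 and 0.000704); over all PNs the call was lost without DRG4 or DRG5 (adjusted p = 0.0534 and 0.0582). In slow-growing PNs *Ntf3* had a log2 fold change of -2.39 and was not called (edgeR adjusted p = 0.0947). With the muscle and fat scores as covariates it was 0.0055 over all PNs and 0.76 in fast-growing PNs (edgeR adjusted p = 0.999 and 0.985). *Ntf5*, for another TrkB ligand, rose over all PNs by 1.80 ± 0.47 (SE; edgeR quasi-likelihood adjusted p = 0.0116), from 2 to 3 counts in controls to 5 to 21 in PNs. That call of *Ntf5* was lost without DRG5 (edgeR adjusted p = 0.0603). In slow-growing PNs versus controls *Ntf5* rose by 1.95 ± 0.48 (SE, edgeR quasi-likelihood adjusted p = 0.035). With 1 library left out, *Ntf5* was tested there in 5 of 8 fits and called in 2. The call was lost in 3 (edgeR adjusted p = 0.0726 to 0.156), and in the others *Ntf5* did not pass the count filter. The RET-family ligand genes *Nrtn*, *Artn*, *Pspn*, and *Gdf15* gave 0 to 12 counts a library and were not tested, nor was the receptor gene *Gfral*.

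Among the other receptors, *Ncam1*, a neural adhesion molecule that can also bind GDNF, rose most. It was at 36.8 to 83.7 CPM in controls, 159 to 275 in slow-growing PNs, and 313 to 401 in fast-growing PNs, so that no 2 groups overlapped. Its log2 fold change was 1.80 ± 0.33 (SE) in slow- and 2.55 ± 0.24 in fast-growing PNs versus controls (edgeR quasi-likelihood adjusted p = 0.0118 and 8.65e-05), and 0.75 ± 0.18 between them (adjusted p = 0.0572). In slow-growing PNs the call of *Ncam1* was lost without DRG4 or DRG5 (edgeR adjusted p = 0.0650 and 0.0539). With the muscle and fat scores as covariates *Ncam1* was called in no comparison, at 1.15 ± 0.47 over all PNs (2.30 ± 0.36 without them), 0.83 in slow-, and 2.78 in fast-growing PNs (edgeR adjusted p = 0.230, 1, and 0.632). *Sorcs2*, a proneurotrophin receptor, rose in fast-growing PNs by 1.80 ± 0.26 (edgeR quasi-likelihood adjusted p = 0.000908), and *Sort1*, another, fell there by 0.55 on the log2 scale (adjusted p = 0.0313). The call for *Sort1* was lost in 6 fits that left out 1 library, DRG3, DRG5, 1053, 1179, 1214, or 1216 (edgeR adjusted p = 0.0577 to 0.125). With the muscle and fat scores as covariates *Sorcs2* was at 0.99 and *Sort1* turned to 0.12 (edgeR adjusted p = 0.895 and 0.980). *Ngfr*, the shared neurotrophin receptor gene, had a log2 fold change of 0.97 over all PNs (edgeR quasi-likelihood adjusted p = 0.277). Those of *Sorcs1*, *Sorcs3*, *Gfra4*, and *Nradd* were 0.83, 1.01, -0.15, and 0.43, with edgeR adjusted p of 0.0791, 0.122, 0.814, and 0.473.

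Of the adaptors and proteases, *Gab2*, a docking protein downstream of TRK and RET, and *Plat*, tissue plasminogen activator, which acts in the cleavage of proBDNF, were the genes higher in fast- than in slow-growing PNs. *Gab2* was at 47.5 to 73.8 CPM in the slow- and at 86.1 to 135 CPM in the fast-growing group, with a log2 fold change of 0.96 ± 0.15 (SE; edgeR quasi-likelihood adjusted p = 0.0317). *Plat* was at 15.9 to 49.8 and 78.2 to 135 CPM, a log2 fold change of 1.39 ± 0.27 (edgeR quasi-likelihood adjusted p = 0.0449). Neither gene's growth groups overlapped. The call of *Gab2* was lost without any one of the 7 libraries named for *Gdnf* (edgeR adjusted p = 0.0609 to 0.120), and that of *Plat* without any of these or 1214 (0.0554 to 0.129). With the muscle and fat scores as covariates they were at 0.71 and 1.72 and not called (edgeR adjusted p = 0.320 and 0.286). *Sh2b2*, an adaptor also used by the insulin receptor, fell over all PNs by 2.77 on the log2 scale, while *Shc3*, *Frs2*, and *Ripk2* rose by 1.92, 0.76, and 0.76 (edgeR quasi-likelihood adjusted p = 0.00220, 0.0216, 0.00180, and 0.0399). The call of *Shc3* was lost without DRG4 or DRG5 (edgeR adjusted p = 0.0855 and 0.119), and that of *Ripk2* in 10 of 14 fits without 1 library, all but those without 1202, 1203, 1206, or 1191 (0.0503 to 0.156). In limma-voom both were lost (adjusted p = 0.0868 for *Shc3* and 0.0699 for *Ripk2*). The call of *Ripk2* was also lost with DESeq2 size factors in edgeR, upper-quartile scaling, or removal of a length and GC trend (edgeR adjusted p = 0.0576, 0.0757, and 0.0557). With the muscle and fat scores as covariates *Shc3* was at 0.68, *Ripk2* at 0.19, and *Frs2* at 1.04 (edgeR adjusted p = 0.699, 0.803, and 0.0532), while *Sh2b2*, at -2.67, remained called (edgeR adjusted p = 0.0164).

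**Figure D4:**
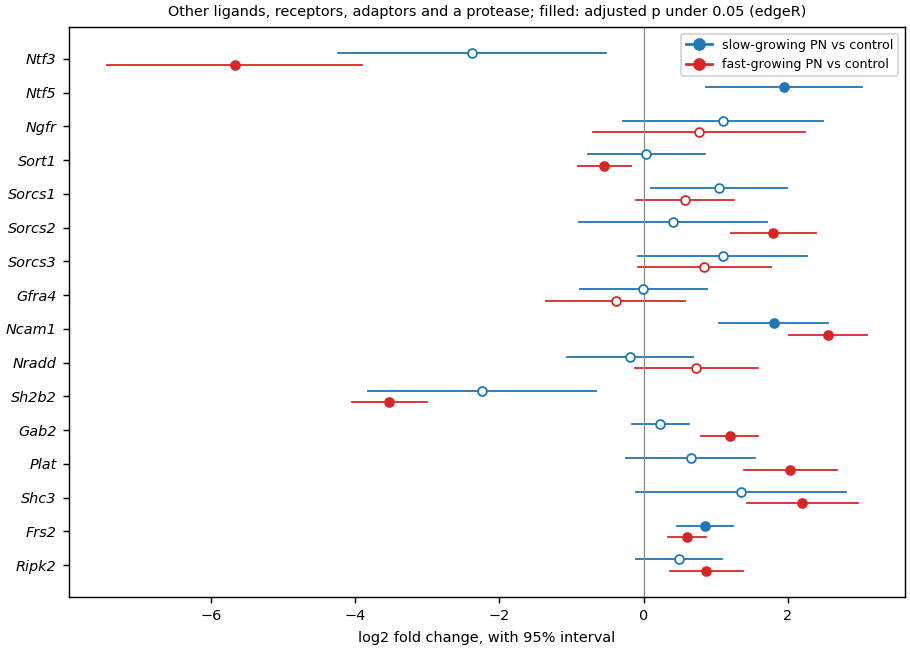
Log2 fold changes versus controls (x axis, with 95% intervals) of other ligand and receptor genes and of 6 adaptor or protease genes, in slow-growing (blue) and fast-growing (red) PNs; *Ntf5* was tested in slow-growing PNs alone. Filled points had an edgeR adjusted p under 0.05; *Ntf3* and *Sh2b2* lie to the left and *Ncam1* to the right of 0 in both comparisons.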

How the data were processed

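The data are 14 bulk RNA-seq libraries, 1 per mouse; the single-cell and human samples of the study were not used here. Per the labels, total RNA went through a whole-transcriptome amplification kit (Ovation, NuGEN). According to the submitters' processing notes the tools were CASAVA 1.4, FastQC 0.11.0, TopHat2 2.0.9, featureCounts 1.5.2, and edgeR 3.16.5, with build mm10; the annotation and strand setting are not given in the sources used here. The deposited values used here are raw counts of reads per gene, whole numbers without any scaling. In 10 of the 14 deposited columns the header is only a mouse number, for which the unit was recorded as other; they hold counts too. A second deposited table, of log2 TMM values, was not used. All 14 columns matched a label, and labels give neither sex nor batch. Controls and PNs are different tissues prepared from different mice, so effects of dissection and of tumor cannot be told apart.

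Groups were compared in R 4.3.3 with edgeR 4.0.16 (filterByExpr, TMM, quasi-likelihood test), with only the libraries of each comparison in the fit and no covariate; a gene was called at a Benjamini-Hochberg adjusted p under 0.05 over all genes tested. SEs were derived from the fold change and the F statistic. Scores and likeness used log2(CPM + 1), and likeness took genes at or above a mean log2 CPM of 3. The fits were tested on simulated data. The 8 members and all gene lists were chosen with earlier results of these data known. Named pathway genes were every tested ligand and receptor and the 6 called adaptor or processing genes with the lowest p; a few genes that these rules name are not reported here. Alternatives were other normalizations and filters, DESeq2 1.42.0, limma-voom (limma 3.58.1), a fit of the 3 groups together, marker scores as covariates, a threshold of 0.01, leaving out each library, and, chosen after seeing the data, removal of a length and GC trend. Positions came from the GENCODE annotation of mm10 (22750 genes matched by symbol, 950 by an older symbol, 362 not), and promoter sequences from RefSeq (GRCm38.p6). Depth limits low genes, and amplified reads are not independent molecules. Figures were drawn with matplotlib in Python.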

Additional observations from a re-analysis of the deposited data

Results flagged for a closer look

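Among 40 gene and group combinations examined for a single library far from the rest, 4 stood out, where chance alone gives about 1 in 20. In slow-growing PNs, *Gfra3* was 33.9 CPM in 1203, with the next library at 12.6 CPM; 1203 also had the highest pan-neuronal score, 9.50. *Gdnf* was 1.13 CPM in slow-growing PN 1198A, with the next at 0.613 CPM, and *Sorcs2* was 147 CPM in the same library, with the next at 51.1 CPM; *Sorcs2* was at 116 to 215 CPM in fast-growing PNs. *Ntf3* was 0.151 CPM (2 counts) in fast-growing PN 1191, with the next at 0.0558 CPM (1 count), both below the floor of 3 counts.

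The difference of *Gdnf* between fast- and slow-growing PNs, a log2 fold change of 2.84, was the 1 difference between growth groups among the members that passed the edgeR quasi-likelihood test (adjusted p = 0.0317). It was higher in 6 of 6 fast-growing PNs than in any slow-growing PN.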

How the results depend on the processing

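Of the alternatives, skeletal muscle and fat scores as covariates changed most: no member was then called in any comparison, where 3 had been called over all PNs, 3 in fast-growing PNs versus controls, and 1 between growth groups, and the pathway genes called higher numbered 0 in all 4 comparisons and those called lower 1 over all PNs and 0 in fast-growing PNs. These scores did not overlap between controls and PNs, and the share of all genes called with them as covariates is not given. Over all PNs the log2 fold changes of *Gfra1* (1.33), *Gfra2* (1.31), *Ntf5* (2.47), and *Frs2* (1.04) were then no smaller than in the fit without them (0.84, 1.27, 1.80, and 0.76), with larger SEs, whereas those of *Ntrk2* (0.11), *Ncam1* (1.15), *Shc3* (0.68), and *Ripk2* (0.19) were smaller (1.12, 2.30, 1.92, and 0.76 without them). The direction turned for *Gfra3* (log2 fold change -0.55 over all PNs, -0.61 in slow-, and -1.30 in fast-growing PNs), *Gdnf* (-1.34 over all PNs), *Ntf3* (0.0055 over all PNs and 0.76 in fast-growing PNs), *Plat* (-0.069 over all PNs), *Ntrk3* (-0.041 in slow- and 1.21 in fast-growing PNs), and *Sort1* (0.12 in fast-growing PNs). With the pan-neuronal score as a covariate it turned for *Bdnf* (-0.26 over all PNs and -0.94 in slow-growing PNs), *Gfra3* (-0.17 in slow-growing PNs), and, between growth groups, *Ret* (0.18) and *Gfra2* (0.14), none called. With that covariate *Gfra3* was called in fast-growing PNs (1.37, edgeR adjusted p = 0.0141). In limma-voom *Bdnf* turned to -0.19 over all PNs, -0.20 in slow-, and -0.23 in fast-growing PNs, and -0.025 between growth groups. Across the alternatives that kept all libraries, *Ret* ran from 0.050 to 1.45 in slow- and from 0.19 to 3.22 in fast-growing PNs versus controls. *Bdnf* ran from -0.23 to 2.84 in fast-growing PNs versus controls, and none of these was called. With the length and GC trend removed, chosen after seeing the data, *Ntrk3* was -0.37 over all PNs and -0.12 in slow-growing PNs, 1 member and 5 pathway genes were called higher over all PNs, and 1 member, *Ntrk3* (-0.63, edgeR adjusted p = 0.0228), lower in fast-growing PNs. The cause was not tested for these changes.

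At a threshold of 0.01, 0 members and 2 pathway genes were called higher and 1 pathway gene lower over all PNs, 0 pathway genes higher in slow-growing PNs, 1 member higher in fast-growing PNs, and 0 members and 0 pathway genes higher between growth groups. In slow-growing PNs versus controls, DESeq2 and the fit of the 3 groups each called 2 members higher (*Gfra1* and *Gfra2*) and limma-voom 1, with 2, 1, and 2 pathway genes lower in that order. Between growth groups DESeq2 called 2 members lower and 5 pathway genes higher, limma-voom 0 members and 1 pathway gene higher, and upper-quartile scaling 1 pathway gene higher. DESeq2 also called *Gdnf* over all PNs (adjusted p = 0.0278). *Gfra1* over all PNs was at an adjusted p of 0.0503 with DESeq2 size factors in edgeR and 0.0501 without a filter.

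With 1 library left out, members called higher numbered 0 to 3 over all PNs, 0 to 1 in slow-growing PNs, 1 to 4 in fast-growing PNs, and 0 to 2 between growth groups, where 0 to 1 were lower. Pathway genes called higher numbered 2 to 10, 0 to 5, 7 to 11, and 0 to 5 in the same order, and those called lower 1 to 2 over all PNs, 0 to 1 in slow-, and 2 to 4 in fast-growing PNs. The share of all genes called is not given for these fits, nor for the alternatives above, so these counts stand without a background. The direction of *Ntrk3* (-0.13 to 0.41 over all PNs, -0.45 to 0.013 in fast-growing PNs), *Bdnf* (-0.12 to 0.48 in slow-growing PNs, -0.069 to 0.73 between growth groups), *Ret* (-0.998 to 0.15), and *Gfra2* (-0.29 to 0.26), both between growth groups, depended on single libraries. No paired analysis was possible because the labels give the groups no shared replicate numbers. Depth limits *Gdnf*, *Ntf3*, and *Ntf5*, since controls or PNs gave only a few counts of each, and left *Nrtn*, *Artn*, *Pspn*, and *Gfral* untested.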
